A study of Mus musculus with 12 samples.

Results

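The transcription factor ATF4 and 9 genes known as its targets in amino acid stress were followed in mouse bone marrow-derived macrophages (BMMs) with and without the RNA-binding protein IGF2BP2. The 10 genes (Atf4, Ddit3, Asns, Trib3, Chac1, Psat1, Phgdh, Shmt2, Slc7a11 and Sesn2) were chosen by name for their known part in this pathway. They are 10 of 38887 genes in the tables, and all 10 were among the 12846 genes with enough counts to be tested.

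RNA-Seq data were available from 4 groups of 3 libraries, from WT and IGF2BP2 KO BMMs that were left untreated (M0) or received 20 ng/ml IL-4 for 8 h (M2). All cells came from mice of 3 to 4 months and were differentiated with 50 ng/ml M-CSF. KO mice combined the floxed allele of B6.Cg-Igf2bp2tm1.1Thor/J, with loxP sites around exons 4 and 5, with the Cre insertion of 29P2-Lyz2tm1(cre)Ifo/J. Cre is then made by myeloid cells from the Lyz2 locus, which the insertion itself disrupts. WT littermates had no floxed allele, and some of them carried Cre. Total counts per library ranged from 24942666 to 29832430 in WT M0, 20011792 to 22744704 in WT M2, 26568719 to 37054582 in KO M0 and 27347077 to 39632770 in KO M2. Transcript levels are given as TPM, transcripts relative to the total of a library after correction for gene length, and levels of different genes are compared in this unit only.

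The labels were checked first. Igf2bp2 had 70.11, 58.33 and 42.07 TPM in WT M0, 120.12, 126.83 and 95.9 TPM in WT M2, 56.05, 48.45 and 53.81 TPM in KO M0 and 75.38, 72.83 and 71.29 TPM in KO M2. These values count the whole gene, including the exons that remain after recombination, so that they cannot show the loss of 2 exons. Lyz2, which carries the Cre insertion in KO, lay between 6126.32 and 15401.11 TPM in WT and between 15.18 and 50.19 TPM in KO. KO and WT thus differed in Lyz2 as well as at Igf2bp2. In every comparison of KO with WT below, effects of IGF2BP2 loss, Lyz2 loss and Cre cannot be told apart. Retnla, a marker of the IL-4 response, lay between 0 and 0.39 TPM in M0 and between 227.12 and 506.83 TPM in M2. The summed level of 8 macrophage markers was 3510 to 4510 TPM in the 12 libraries. The summed level of 8 neutrophil markers was 23.8 to 61.2 TPM in WT M0, 14.2 to 36.1 TPM in WT M2, 17.8 to 19.2 TPM in KO M0 and 13.7 to 19.1 TPM in KO M2, with Ly6g at 0 throughout. In bulk RNA, fewer cells of a type and less RNA per cell cannot be told apart.

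ATF4 is the effector of the integrated stress response. When amino acids, heme or the folding capacity of the endoplasmic reticulum (ER) run short, or when viral RNA is present, the kinases GCN2, HRI, PERK and PKR phosphorylate the translation factor eIF2α. Protein synthesis then falls in general, whereas translation of Atf4 rises because of short upstream reading frames in its mRNA. Atf4 mRNA is therefore no measure of ATF4 protein. ATF4 pairs with C/EBP proteins on composite C/EBP-ATF response elements (CARE) and raises genes for amino acid uptake, amino acid synthesis, tRNA charging and glutathione supply. In macrophages these pathways meet the demand for serine, glycine and cysteine during activation.

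The promoters of the 10 genes were read from RefSeq (GRCm38.p6), as windows of 300 bases of which 250 lie before the start site. All 10 genes were found, Psat1 with 2 windows. The CARE letters TGATGNAA on either strand occurred in 3.97% of the 32851 RefSeq promoter windows and in those of 4 of the 10 genes. The 5 matches are shown because they are the ATF4 motif of the genes discussed here, each with its surroundings on the strand of the gene and with the matching letters in capitals.
Asns: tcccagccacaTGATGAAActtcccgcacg
Chac1: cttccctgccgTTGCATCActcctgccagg
Slc7a11, far: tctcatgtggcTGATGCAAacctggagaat
Slc7a11, near: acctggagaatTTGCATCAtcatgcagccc
Trib3: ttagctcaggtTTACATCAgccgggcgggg

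These stretches lie at chr6:7693214-7693243 (minus strand) for Asns, chr2:119351038-119351067 (plus strand) for Chac1, chr3:50443661-50443690 and chr3:50443642-50443671 (minus strand) for Slc7a11 and chr2:152344028-152344057 (minus strand) for Trib3. Slc7a11 was the member with 2 matches, on opposite strands and at -66 to -59 and -47 to -40 bases from the start site. The match of Asns lay at -23 to -16, that of Chac1 at -193 to -186 and that of Trib3 at 15 to 22, which is after the RefSeq start. Positions depend on the annotation, since the GENCODE coordinates of the genes place the match of Asns inside the gene and that of Trib3 before it. The antioxidant response element bound by NRF2, searched as TGACNNNGC on either strand, occurred in 12.4% of all windows and in Asns, Phgdh and Sesn2. The STAT6 motif TTCNNNNGAA, for the factor activated by the IL-4 receptor, occurred in 6.95% of all windows and in Chac1 and Shmt2. None of the matches in the 10 genes overlapped another. Atf4, Ddit3 and Psat1 held none of the 3 motifs in these windows, which says nothing about sites elsewhere.

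**Figure D1:**
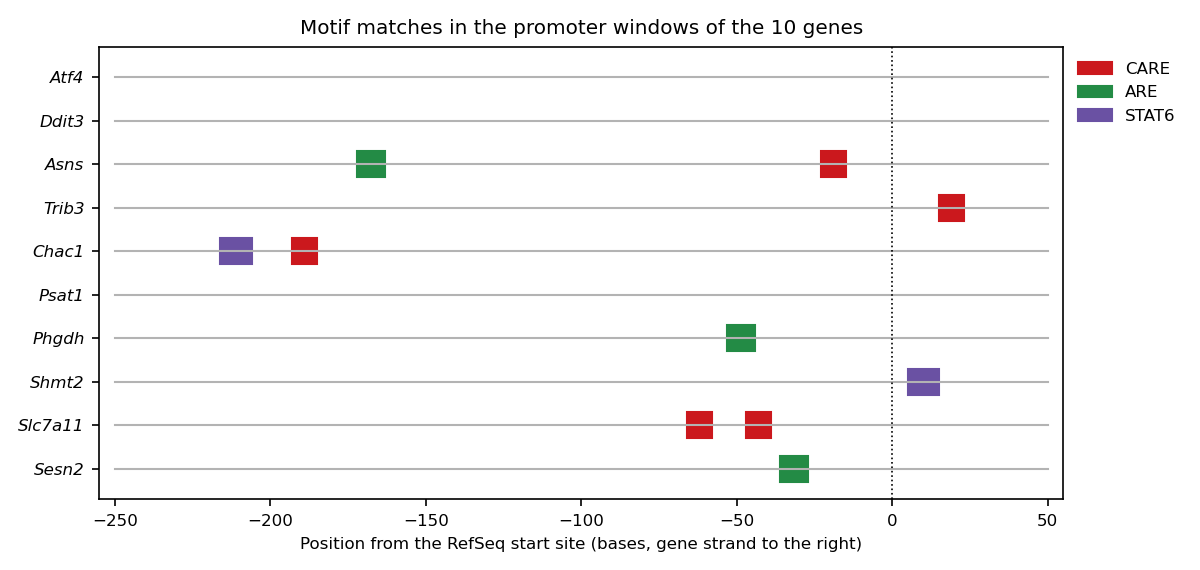
Matches to 3 motifs in the promoter windows of the 10 genes, with the position in bases from the RefSeq start site on the x axis and 1 line per gene. Boxes mark CARE (red), ARE (green) and STAT6 (violet) matches; CARE boxes stand in Asns, Trib3, Chac1 and, as a pair, Slc7a11.

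In GENCODE M21 on GRCm38, the transcription factors are encoded by Atf4 (ENSMUSG00000042406.7, chr15:80255184-80257541, plus strand) and Ddit3 (ENSMUSG00000025408.9, chr10:127290774-127296288, plus strand). The regulators are Trib3 (ENSMUSG00000032715.9, chr2:152337422-152344032, minus strand) and Sesn2 (ENSMUSG00000028893.8, chr4:132492032-132510501, minus strand). The synthesis enzymes are Asns (ENSMUSG00000029752.6, chr6:7675169-7693254), Psat1 (ENSMUSG00000024640.3, chr19:15904678-15947337), Phgdh (ENSMUSG00000053398.5, chr3:98313170-98339990) and Shmt2 (ENSMUSG00000025403.4, chr10:127517123-127522444), all on the minus strand. The glutathione-related genes are Slc7a11 (ENSMUSG00000027737.5, chr3:49892526-50443614, minus strand) and Chac1 (ENSMUSG00000027313.3, chr2:119351229-119354381, plus strand). Exons of Ddit3 share 68 bases with Mars and 13 bases with Gm4189 on the opposite strand, and exons of Shmt2 share 32 bases with Ndufa4l2. The strand setting of the counting is not given in the sources used here, so that reads in these stretches may have been counted for either gene.

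Among the 10 genes Atf4 had the highest level in every library, from 184.72 to 264.29 TPM. In WT M0 the next were Psat1 (79.6 ± 3.89 TPM, mean ± SD, n = 3) and Shmt2 (75.9 ± 1.6 TPM), whose libraries overlapped. They were followed by Asns (67.9 ± 5.51 TPM), Phgdh (46.1 ± 8.57 TPM), Ddit3 (19.7 ± 0.506 TPM) and Sesn2 (9.91 ± 0.502 TPM), which did not overlap their neighbours. Trib3 (3.15 ± 0.76 TPM) and Slc7a11 (2.97 ± 0.696 TPM) overlapped, and Chac1 was lowest (1.69 ± 0.155 TPM). In WT M2 Slc7a11 was the lowest (0.937 ± 0.134 TPM), while Psat1 and Shmt2, Asns and Phgdh, and Trib3 and Chac1 overlapped. By their means, the genes had the same order in KO as in WT for either treatment. In KO M0 Shmt2 overlapped Asns but not Psat1, and Trib3, Slc7a11 and Chac1 were separate, and in KO M2 Psat1 and Shmt2 overlapped, as did Asns and Phgdh. Chac1 rested on 33 to 123 counts per library, Trib3 on 64 to 207, Slc7a11 on 91 to 515 and the other 7 genes on at least 240.

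**Figure D2:**
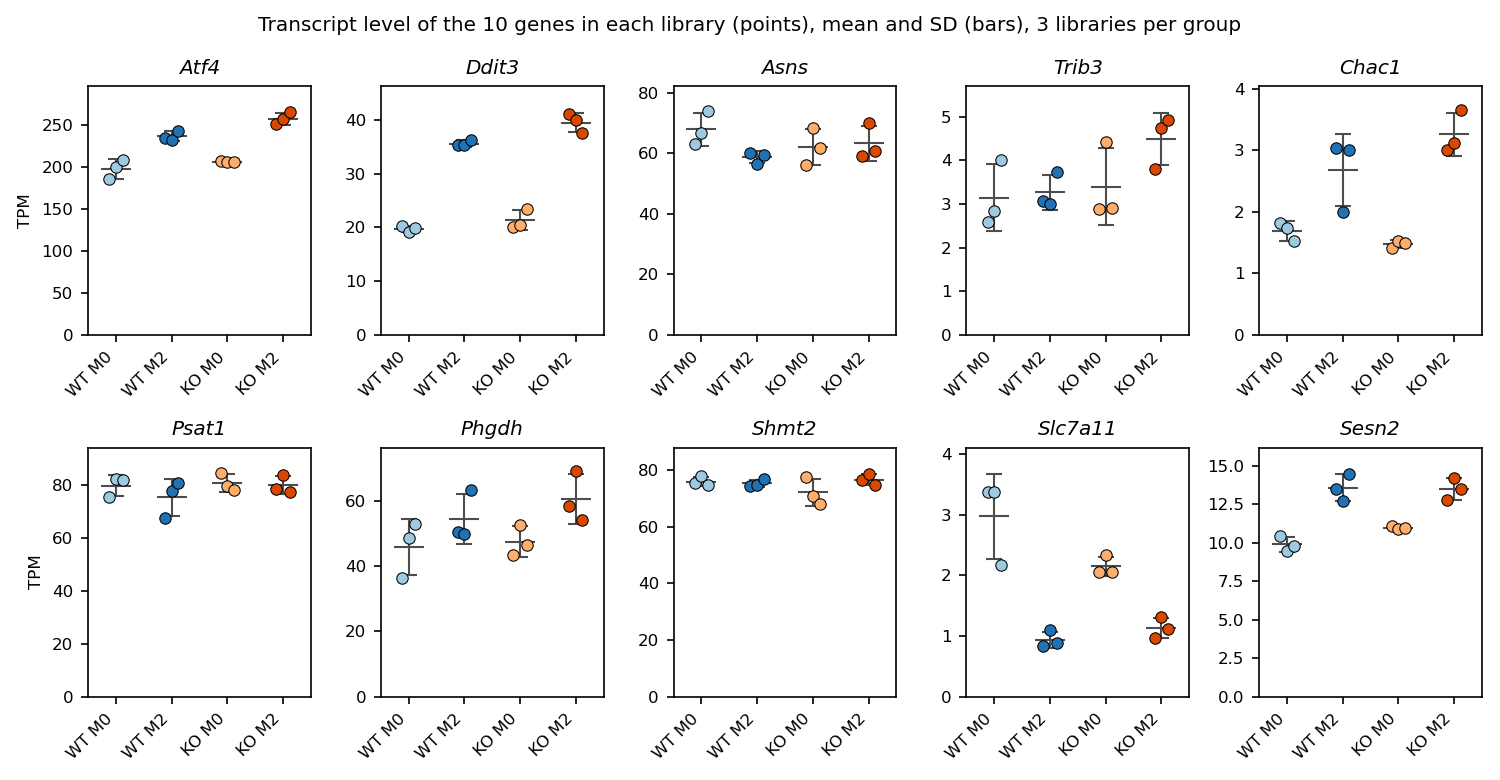
TPM of the 10 genes (y axis, 1 panel per gene, starting at 0) in the 4 groups, with 1 point per library and bars for the mean and SD of 3 libraries. Ddit3 and Sesn2 sit higher in every M2 library than in every M0 library, Slc7a11 sits lower in every M2 library, and Psat1 and Shmt2 hold about the same level in the 4 groups.

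The first question was how IL-4 changed these genes in WT and KO BMMs. In WT, 4 of the 10 rose (Atf4, Ddit3, Chac1, Sesn2), 1 fell (Slc7a11) and 5 were not called, where a call is an edgeR adjusted p under 0.05. Of all genes tested, 24.9% rose and 25.1% fell in this comparison. In KO, 6 rose (Atf4, Ddit3, Chac1, Sesn2, Phgdh, Shmt2), 1 fell (Slc7a11) and 3 were not called, beside 26.8% and 26.0% of all genes tested. The median log2 fold change of the 10 genes was 0.18 in WT and 0.39 in KO, compared with -0.01 and 0.01 for all genes tested. With the mouse as a block, which pairs the M0 and M2 libraries taken as those of 1 animal, 6 of the 10 genes were called in WT and 8 in KO, where the same fit called 7015 and 7473 of the 12846 genes tested.

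Atf4, the central factor, had 184.72, 199.52 and 207.94 TPM in WT M0 and 234.5, 231.65 and 242.68 TPM in WT M2. In KO it had 206.36, 205.09 and 204.95 TPM in M0 and 250.23, 256.28 and 264.29 TPM in M2. All M2 libraries lay above all M0 libraries of either genotype. The increase was modest, with a log2 fold change of 0.32 in WT (SE 0.06, edgeR adjusted p = 0.000579) and 0.40 in KO (SE 0.06, edgeR adjusted p = 7.7e-05), or 1.25-fold and 1.32-fold.

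Ddit3 encodes CHOP, a bZIP factor that lies downstream of ATF4 and takes part in stress-induced cell death. It had 20.2, 19.2 and 19.84 TPM in WT M0 and 35.31, 35.24 and 36.26 TPM in WT M2, against 20.1, 20.54 and 23.51 TPM in KO M0 and 41.18, 39.9 and 37.56 TPM in KO M2. The groups were tight and did not overlap between M0 and M2. The log2 fold change was 0.90 in WT (SE 0.09, edgeR adjusted p = 3.22e-06) and 0.95 in KO (SE 0.08, edgeR adjusted p = 9.69e-07), close to a doubling in both genotypes (1.86-fold and 1.93-fold).

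Trib3 is a pseudokinase that is induced by ATF4 and CHOP and restrains them in turn. It had 2.6, 2.84 and 4.02 TPM in WT M0, 3.08, 3 and 3.73 TPM in WT M2, 2.88, 4.42 and 2.91 TPM in KO M0 and 3.8, 4.74 and 4.93 TPM in KO M2. One library in each M0 group was high, and M0 and M2 overlapped in both genotypes. The log2 fold change was 0.10 in WT (95% interval -0.34 to 0.54, edgeR adjusted p = 0.74) and 0.47 in KO (0.07 to 0.88, edgeR adjusted p = 0.0729). With the mouse as a block the value in KO was 0.49 and was called (edgeR adjusted p = 0.0158). Without KO M0 replicate 2, the high library, it was 0.72 (edgeR adjusted p = 0.014), and without WT M0 replicate 3 it was 0.47 and called (edgeR adjusted p = 0.0365). Over the 12 fits without 1 library the value in KO ranged from 0.36 to 0.72 (edgeR adjusted p from 0.014 to 0.22).

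Sesn2 encodes Sestrin 2, a leucine sensor that holds back the kinase complex mTORC1 through GATOR2 and that is also a target of p53 and NRF2. Its levels were 10.45, 9.46 and 9.81 TPM in WT M0, 13.49, 12.73 and 14.47 TPM in WT M2, 11.12, 10.93 and 10.98 TPM in KO M0 and 12.8, 14.21 and 13.48 TPM in KO M2. M2 libraries were higher than M0 libraries without overlap. Sesn2 rose by a log2 fold change of 0.52 in WT (SE 0.06, edgeR adjusted p = 1.16e-05) and of 0.37 in KO (SE 0.06, edgeR adjusted p = 0.000114).

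Of the 4 synthesis enzymes, Phgdh and Shmt2 rose in KO. Asns makes asparagine from aspartate and glutamine and is the classical CARE-driven gene. It had 63.09, 66.6 and 73.9 TPM in WT M0, 60.14, 56.55 and 59.57 TPM in WT M2, 56.08, 68.21 and 61.9 TPM in KO M0 and 59.23, 69.88 and 60.78 TPM in KO M2. In TPM, the WT M2 libraries lay below the WT M0 libraries, whereas in CPM, which are counts relative to the TMM-scaled library total without a correction for length, they overlapped, as the KO libraries did on both scales. Asns was not called in WT (log2 fold change -0.10, 95% interval -0.27 to 0.06, edgeR adjusted p = 0.341) or in KO (0.13, -0.03 to 0.30, edgeR adjusted p = 0.209).

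Phgdh catalyses the first step of serine synthesis from 3-phosphoglycerate. Its levels were 36.53, 48.86 and 53 TPM in WT M0, 50.59, 50 and 63.63 TPM in WT M2, 43.5, 52.75 and 46.56 TPM in KO M0 and 58.5, 69.26 and 54.37 TPM in KO M2. In WT the groups overlapped, with WT M0 replicate 1 lowest of all, and in KO they did not. The log2 fold change was 0.26 in WT (95% interval -0.08 to 0.61, edgeR adjusted p = 0.236), but with the mouse as a block it was 0.27 and called (edgeR adjusted p = 0.00175), and without WT M0 replicate 3 it was 0.48 and called (edgeR adjusted p = 0.0198). Over the 12 fits without 1 library it ranged from 0.06 to 0.48 (edgeR adjusted p from 0.0198 to 0.806). In KO it rose by 0.52 (SE 0.17, edgeR adjusted p = 0.0217). This call was lost without KO M0 replicate 1 (0.46, edgeR adjusted p = 0.0794), KO M0 replicate 3 (0.53, edgeR adjusted p = 0.0522) or KO M2 replicate 2 (0.46, edgeR adjusted p = 0.0691), and with limma on TPM.

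Psat1, the transaminase of the next step, had 75.14, 81.95 and 81.8 TPM in WT M0, 67.27, 77.72 and 80.52 TPM in WT M2, 84.31, 79.59 and 77.86 TPM in KO M0 and 78.52, 83.77 and 77.08 TPM in KO M2. All 4 groups overlapped. The log2 fold change was -0.04 in WT (95% interval -0.18 to 0.10, edgeR adjusted p = 0.681) and 0.04 in KO (-0.10 to 0.18, edgeR adjusted p = 0.692). Shmt2, which turns serine into glycine in mitochondria and passes a carbon unit to folate, had 75.23, 77.7 and 74.69 TPM in WT M0, 74.33, 74.51 and 76.63 TPM in WT M2, 77.32, 70.78 and 68.11 TPM in KO M0 and 76.48, 78.49 and 74.72 TPM in KO M2. In TPM these groups overlapped in both genotypes, and in CPM the KO groups did not. Shmt2 was not called in WT (0.05, -0.05 to 0.15, edgeR adjusted p = 0.456) and rose slightly in KO (0.17, SE 0.05, edgeR adjusted p = 0.012). The call was lost without KO M0 replicate 3 (0.14, edgeR adjusted p = 0.0601) and with limma on TPM (0.09, limma adjusted p = 0.168).

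Slc7a11 and Chac1 act at opposite ends of glutathione supply and moved in opposite directions. Slc7a11 encodes xCT, the antiporter that takes up cystine in exchange for glutamate. It had 3.37, 3.38 and 2.17 TPM in WT M0, 0.84, 1.09 and 0.88 TPM in WT M2, 2.06, 2.33 and 2.06 TPM in KO M0 and 0.97, 1.31 and 1.11 TPM in KO M2. Every M2 library was below every M0 library. Slc7a11 fell by 1.63 on the log2 scale in WT (SE 0.16, edgeR adjusted p = 3.33e-06) and by 0.85 in KO (SE 0.15, edgeR adjusted p = 0.000463), to 0.322 and 0.557 of the M0 level. Of the 4 neutrophil markers that could be tested, 2 also fell in WT, Ngp by 1.28 (edgeR adjusted p = 0.023) and S100a9 by 0.75 (edgeR adjusted p = 0.0485). In KO their changes were -0.43 and -0.10 and were not called (edgeR adjusted p = 0.458 and 0.82), and their part in the fall of Slc7a11 was not tested.

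Chac1 encodes an enzyme that degrades glutathione. Its levels were 1.82, 1.74 and 1.52 TPM in WT M0, 3.04, 2 and 3.01 TPM in WT M2, 1.41, 1.53 and 1.49 TPM in KO M0 and 3, 3.12 and 3.66 TPM in KO M2. M2 libraries were higher without overlap, and WT M2 replicate 2 was low within its group. Chac1 rose by a log2 fold change of 0.73 in WT (SE 0.18, edgeR adjusted p = 0.00496) and of 1.22 in KO (SE 0.17, edgeR adjusted p = 6.82e-05), where it was the member with the highest fold change (2.33-fold).

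**Figure D3:**
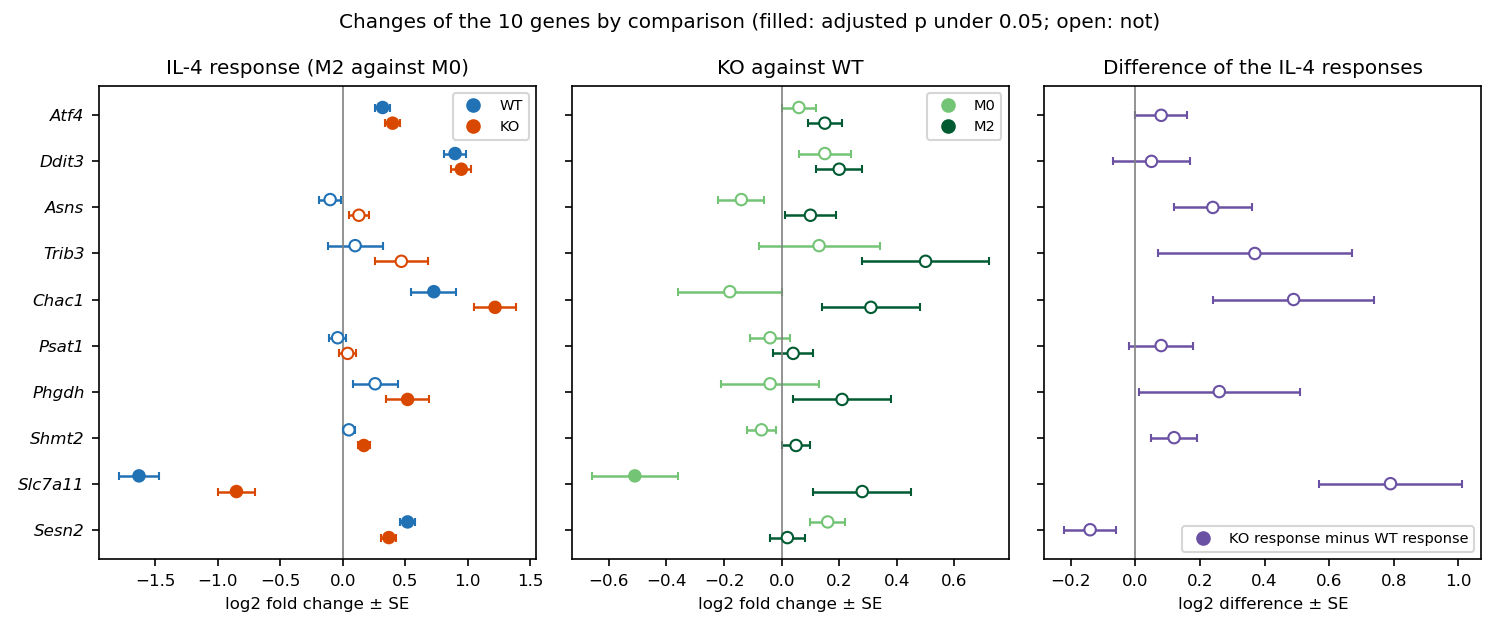
Log2 changes of the 10 genes with their SE (x axis) for the IL-4 response in WT and KO (left), KO against WT in M0 and M2 (middle) and the KO response minus the WT response (right); filled points have an adjusted p under 0.05. In the IL-4 panel Slc7a11 has the filled points below 0, at -1.63 and -0.85, and in the middle panel it is the gene with a filled point, at -0.51 in M0.

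The second question was whether the 10 genes differed between KO and WT. In M0, 1 of the 10 was called, Slc7a11, which was lower in KO, beside 5.50% of all genes tested that were higher and 4.27% that were lower in KO. Its log2 fold change was -0.51 (SE 0.15, edgeR adjusted p = 0.0464). In CPM all 3 KO libraries were below all 3 WT libraries, whereas in TPM WT M0 replicate 3 (2.17 TPM) lay within the KO range (2.06 to 2.33 TPM). The call was close to the threshold, and 8 of the 12 fits with 1 library removed did not give it, namely those without WT M0 replicates 1 or 2, WT M2 replicates 2 or 3, any KO M0 library or KO M2 replicate 3 (edgeR adjusted p from 0.00496 to 0.189 over the 12 fits). Neutrophil markers moved along with this comparison, as 3 of the 4 that could be tested were lower in KO M0 and their summed level in WT M0 was lowest in replicate 3, the library that was also low in Slc7a11. Their part in the result was not tested.

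The other 9 genes were not called in M0. Sesn2 came nearest to the threshold, with all KO libraries above all WT libraries and a log2 fold change of 0.16 (95% interval 0.05 to 0.27, edgeR adjusted p = 0.107). Chac1 was lower in all KO libraries in CPM and overlapped in TPM (-0.18, -0.55 to 0.18, edgeR adjusted p = 0.587). For Atf4 the value was 0.06 (-0.05 to 0.18, edgeR adjusted p = 0.543) and for Ddit3 0.15 (-0.02 to 0.32, edgeR adjusted p = 0.32). Intervals of Asns (-0.30 to 0.03), Psat1 (-0.18 to 0.11), Shmt2 (-0.17 to 0.03), Phgdh (-0.38 to 0.30) and Trib3 (-0.29 to 0.55) all held 0.

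In M2, 0 of the 10 genes were called with edgeR, DESeq2 or limma, beside 1.21% of all genes tested that were higher and 1.46% that were lower in KO. At an unadjusted edgeR p under 0.05 there were 3, all higher in KO. Their ranks by p were 1833, 2016 and 2280 among the 12846 genes tested, so that at least 2280 genes passed this limit. Atf4 was higher by a log2 fold change of 0.15 (95% interval 0.03 to 0.26, edgeR adjusted p = 0.184), Ddit3 by 0.20 (0.04 to 0.37, edgeR adjusted p = 0.201) and Trib3 by 0.50 (0.07 to 0.92, edgeR adjusted p = 0.222). For these 3 genes all KO libraries lay above all WT libraries in both TPM and CPM, and for Asns and Chac1 in CPM only. How many of all genes tested separated in this way, here or in M0, was not counted, so that the separation is not shown to be particular to these genes. Chac1 had a log2 fold change of 0.31 (-0.03 to 0.64, edgeR adjusted p = 0.339) and Slc7a11 of 0.28 (-0.05 to 0.61, edgeR adjusted p = 0.379). The values of Asns (0.10), Psat1 (0.04), Phgdh (0.21), Shmt2 (0.05) and Sesn2 (0.02) had edgeR adjusted p of at least 0.519. None of these results shows that the genotypes were alike, since a 1.41-fold difference, as estimated for Trib3, did not pass.

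The third question was whether IL-4 acted on these genes to a different extent in KO, tested as the KO response minus the WT response. With edgeR 0 of the 10 genes were called, beside 1.11% of all genes tested with a more positive and 2.13% with a more negative response in KO, and 1 gene had an unadjusted p under 0.05. This was Slc7a11, with a difference of 0.79 on the log2 scale (SE 0.22, 95% interval 0.35 to 1.23, edgeR adjusted p = 0.0788), a smaller decrease in KO. By p it ranked 653 among the 12846 genes tested. It was called with the mouse as a block (0.78, edgeR adjusted p = 0.0233), with DESeq2 (0.78, DESeq2 adjusted p = 0.0268) and without WT M0 replicate 3 (0.94, edgeR adjusted p = 0.0136). With limma 0 of the 10 genes were called. The differences of the neutrophil markers Ngp (0.85, edgeR adjusted p = 0.522) and S100a9 (0.66, edgeR adjusted p = 0.458) had the same sign and were not called, and their part was not tested. The response uses the same M0 libraries as the comparison of KO with WT in M0, so that the lower M0 level of Slc7a11 in KO and its smaller decrease are not independent results.

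For the other 9 genes the difference was not called in any of these tests. Chac1 had 0.49 (95% interval -0.00 to 0.98, edgeR adjusted p = 0.338), Trib3 0.37 (-0.22 to 0.97, edgeR adjusted p = 0.569), Phgdh 0.26 (-0.23 to 0.74, edgeR adjusted p = 0.636) and Asns 0.24 (0.00 to 0.47, edgeR adjusted p = 0.333). The calls of Phgdh and Shmt2 in KO and their absence in WT are thus not shown to differ between the genotypes. The differences of Atf4 (0.08), Ddit3 (0.05), Psat1 (0.08), Shmt2 (0.12) and Sesn2 (-0.14) had edgeR adjusted p of at least 0.402.

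Across the 12 libraries, log2 CPM of Atf4 correlated with that of Ddit3 at r = 0.94, Sesn2 at 0.91, Chac1 at 0.88 and Slc7a11 at -0.89, and less with Asns (0.28) and Psat1 (0.20). These are descriptions, as the 12 points share treatment and mice. Taken over the 9738 genes whose mean reached 5 CPM, those most like Atf4 by Pearson correlation over the 12 libraries were Hacd1, Adamtsl5 and Arf4 (each 0.985), Psmd8 (0.983) and Slc9a3r1 (0.982). Those most like the mean of the 10 genes were Eif4e3 (0.981), Def6 (0.975), Tbrg4 (0.969), Nop53 (0.957) and Smpd1 (0.957).

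Other genes of the pathway were described in lists by function. Their counts with IL-4 stand beside the shares of all genes tested, of which 24.9% rose and 25.1% fell in WT and 26.8% rose and 26.0% fell in KO. Among 7 genes for eIF2α, its kinases and its phosphatase subunits, 3 rose and 4 were not called with IL-4 in WT, and 2 rose and 1 fell in KO. Ppp1r15a (GADD34), which brings the phosphatase to eIF2α and closes the feedback loop of the response, rose by a log2 fold change of 0.67 in WT (edgeR adjusted p = 0.000127) and 0.44 in KO (edgeR adjusted p = 0.00177). Eif2s1, which encodes eIF2α itself, rose by 0.21 and 0.19, of which the KO call was lost with limma, and Eif2ak2 (PKR) fell by 0.37 in KO. Eif2ak3 (PERK) was called in WT at 0.14 (edgeR adjusted p = 0.0483), but not in 7 of 8 alternatives. Median changes were 0.14 in WT and -0.05 in KO.

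The 8 genes listed as ATF4 partners and related bZIP factors split, with 3 higher and 4 lower in WT and 3 higher and 2 lower in KO (medians -0.26 and 0.10). Batf3, which dimerizes with JUN proteins, rose by 3.65 in WT and 3.72 in KO, Atf3 by 1.39 and 1.54, and Jdp2, a repressor of the AP-1 family, fell by 2.16 and 1.53. Of the 14 amino acid transporters tested, 4 rose and 5 fell in WT, and 5 rose and 4 fell in KO, which is close to those shares. Slc7a7, the exporter of cationic amino acids, fell by 1.57 and 1.59, and Slc38a2, a glutamine transporter, by 0.52 and 0.71, whereas Slc1a4, which carries serine and alanine, rose by 0.73 and 1.10. Their medians were -0.14 and -0.02. The 5 that fell in WT became 3 without WT M0 replicate 1, WT M2 replicate 1 or WT M2 replicate 3.

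The aminoacyl-tRNA synthetases, together with the tRNA exporter Xpot, leaned upward. Of 14 tested, 7 rose and 7 were not called in WT, and 10 rose and 1 fell in KO, with medians of 0.14 and 0.20. With limma on log2(TPM + 1) 4 of the 14 were called in WT and 7 in KO. Iars rose by 1.10 in WT and 0.93 in KO and Yars by 0.38 and 0.46, where Yars in WT was not called with limma. In WT Eprs rose by 0.34 and in KO Sars by 0.30. The other enzymes of serine, glycine and one-carbon metabolism leaned downward, as 6 of 10 fell and 4 were not called in WT, and 6 fell and 1 rose in KO (medians -0.30 and -0.26). Tyms, which makes thymidylate and so also serves DNA synthesis, fell by 0.87 and 0.74. Mthfd2, the mitochondrial folate enzyme and a known ATF4 target, fell by 0.46 in WT and 0.33 in KO, and Gcsh of the glycine cleavage system by 0.26 and 0.54.

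Of 6 enzymes of proline, aspartate and alanine metabolism, 2 rose and 1 fell in WT, and 4 rose and 1 fell in KO (medians 0.12 and 0.35). Gpt2, the mitochondrial alanine transaminase, rose by 0.99 and 0.90. Got1 rose by 0.35 in WT and 0.32 in KO, and Got2 fell by 0.30 and 0.25. In KO Prodh rose by 0.64 and Aldh18a1 by 0.38, which were not called in WT (0.12 and 0.13). Of 6 genes of transsulfuration and glutathione metabolism, 1 rose and 3 fell in WT, and 1 rose and 2 fell in KO (medians -0.38 and -0.04). Gclm, the modifier subunit of the enzyme that starts glutathione synthesis, fell by 1.18 and 0.74, and Ggct rose by 0.63 and 0.70. Gss fell by 0.30 in KO, a call lost without KO M0 replicate 2, which left 1 gene of the list lower in KO. Cth was called in WT at -1.32 (edgeR adjusted p = 0.0465), a call lost in 10 of the 12 fits without 1 library.

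Of 12 further ATF4 targets, 3 rose and 1 fell in WT and 5 rose and 1 fell in KO (medians 0.11 and 0.25). Cdkn1a, the cell cycle inhibitor p21, rose by 0.69 and 0.79, and Gabarapl1, a component of autophagosomes, by 0.57 and 0.67. Sqstm1, the autophagy receptor p62, fell by 0.95 and 0.48. Of these further targets 2 instead of 1 fell in WT with the mouse as a block, and also without WT M0 replicate 1, KO M2 replicate 1 or KO M2 replicate 2. NRF2 targets mostly fell, with 9 of 12 lower and 1 higher in WT and 8 lower and 1 higher in KO (medians -0.70 and -0.73). Gsr, which reduces oxidized glutathione, fell by 1.69 and 1.77, Srxn1 by 1.61 and 1.27, and Hmox1 by 1.25 in KO. Slc7a11 and Sqstm1 are known targets of NRF2 as well as of ATF4.

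ER chaperones, which are raised by other branches of the unfolded protein response, rose in 12 of 15 cases in WT with 3 not called, and in KO 6 rose and 1 fell (medians 0.29 and 0.12). Pdia4 rose by 1.65 and 1.46, Hspa5 (BiP) by 0.59 and 0.25, and Sdf2l1 by 0.34 and 0.30, while Dnajb9 rose by 0.49 in WT and was not called in KO (-0.00, edgeR adjusted p = 0.976). The 1 gene that fell in KO became 0 without KO M0 replicate 3 and 2 without WT M2 replicate 3. Between the genotypes in M0, 7 of the 15 were higher in KO and 8 were not called, beside 5.50% of all genes tested that were higher, with Dnajb9 at 0.58, Hyou1 at 0.32 and Hspa5 at 0.30. The number was 2 without WT M0 replicate 2, KO M0 replicate 2 or KO M0 replicate 3 and 4 without WT M0 replicate 1. Neutrophil markers were lower in KO in the same comparison, with log2 fold changes of -2.09 for Ltf, -1.82 for Ngp and -1.38 for S100a9, and their part was not tested. The call of Hspa5 was lost without WT M0 replicate 2, KO M0 replicate 2 or KO M0 replicate 3.

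**Figure D4:**
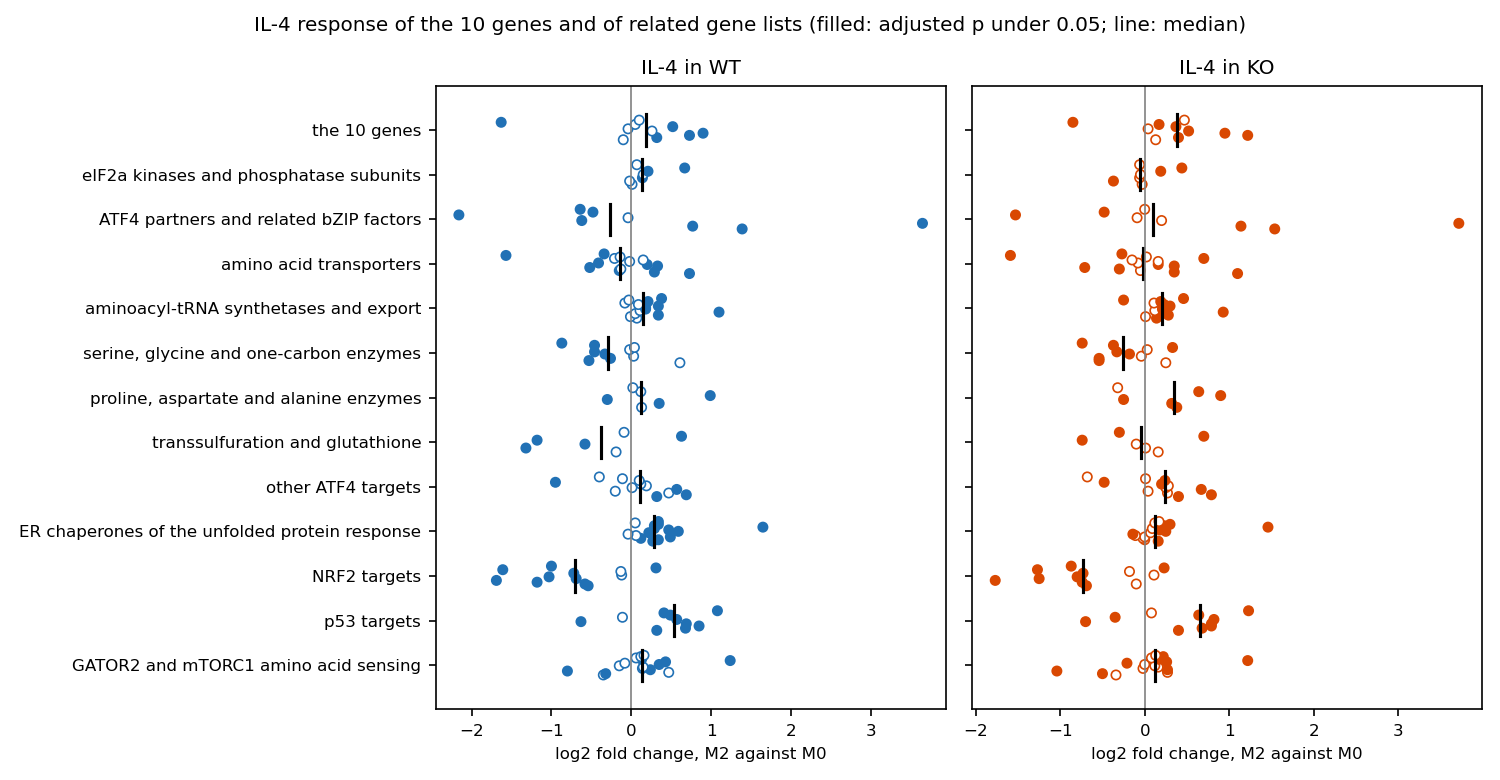
Log2 fold changes of M2 against M0 (x axis) for the genes of each list in WT (left) and KO (right), with 1 point per gene, filled where the adjusted p was under 0.05, and a line at the median of the list. The medians of the NRF2 targets lie at -0.70 and -0.73, whereas those of the 10 genes lie at 0.18 and 0.39.

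KO and WT differed in M0 for a few genes of the ATF4 lists, where 5.50% of all genes tested were higher and 4.27% lower in KO. Slc7a5 (LAT1), the transporter that takes up leucine and other large amino acids, was lower in KO by a log2 fold change of -0.54 (edgeR adjusted p = 0.00951), and Slc7a6 by -0.28, while Slc38a2 was higher by 0.24. Of the ATF4 partners and related factors 3 of 8 were lower, Jdp2 (-0.49), Cebpb (-0.48) and Nupr1 (-0.48), and the glutathione genes Gclc (-0.52) and Gclm (-0.34) were lower while Gss (0.46) was higher. Sqstm1 was lower (-0.39), Ppp1r15a (0.49), Eif2ak3 (0.19) and Gcsh (0.30) were higher, and of the 12 NRF2 targets 4 were lower, among them Srxn1 (-0.49) and Txnrd1 (-0.39), and 1 was higher. Calls of Nupr1, Slc7a6, Slc38a2 and Eif2ak3 were each lost in 6 to 9 of the 12 fits without 1 library. That of Cebpb was lost without KO M0 replicate 2 or KO M0 replicate 3 and, like that of Nupr1, with only the libraries compared, and that of Jdp2 without WT M0 replicate 2, so that 1 of the 8 factors was lower when any of these 3 libraries was left out. Of the NRF2 targets 2 were lower without WT M0 replicate 2 or KO M0 replicate 1, and the number higher ranged from 0 to 2, with 2 under the replicate number as a block. The call of Txnrd1 was lost without WT M0 replicate 2, KO M0 replicate 1 or KO M0 replicate 3 and with limma on log2(TPM + 0.1). Without 1 library, 0 to 3 transporters were lower, 0 to 3 genes of the eIF2α list were higher (1 with the replicate number as a block), and 1 glutathione gene was lower without WT M0 replicate 2 or KO M0 replicate 1. Of the 14 tRNA synthetase and export genes 0 were called with edgeR, DESeq2 or limma, 2 had an unadjusted p under 0.05, and 2 were called without WT M0 replicate 3. At least 2107 of the 12846 genes tested had an unadjusted edgeR p under 0.05 in M0. Of the 6 proline, aspartate and alanine enzymes, 0 were called with edgeR or limma and 2 with DESeq2. Neutrophil markers were lower in KO M0 alongside these genes, as given above for Slc7a11, and their part was not tested.

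In M2 the list of ATF4 partners and bZIP factors held 1 call, Atf5 (0.43, edgeR adjusted p = 0.0157), and the NRF2 list 2, Osgin1 (0.38, edgeR adjusted p = 0.0427) and Hmox1 (-0.58, edgeR adjusted p = 0.0285). Of all genes tested 1.21% were higher and 1.46% lower. Each call was lost in at least 3 of the 12 fits without 1 library, and those of Osgin1 and Hmox1 also with limma and with only the libraries compared. In the other 7 ATF4 lists, 0 genes were called with edgeR, where 1 or 2 genes per list had an unadjusted p under 0.05, DESeq2 called 1 transporter and limma none. At least 2280 of the 12846 genes tested had an unadjusted edgeR p under 0.05 in M2. With the replicate number as a block, 1 transporter and 1 of the other ATF4 targets were called higher and the NRF2 targets called lower were 2 instead of 1. Between the genotypes this number does not stand for a mouse. Without KO M2 replicate 1 there was 1 transporter called, and without WT M0 replicate 3 there were 1 gene of the eIF2α list and 1 ER chaperone. Of the 15 ER chaperones, 0 were called with edgeR, DESeq2 or limma, and 2 had an unadjusted p under 0.05.

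The IL-4 response differed between the genotypes for 6 genes of the ATF4 and NRF2 lists and for 2 ER chaperones. The response was higher in KO for 2 of 8 ATF4 partners and bZIP factors, 1 of 14 transporters, 2 of 6 glutathione genes, which are also the 2 called among the 12 NRF2 targets, and 1 of 12 other ATF4 targets, beside 1.11% of all genes tested, and lower for 2 of 15 ER chaperones, beside 2.13%. When 1 library was left out, each of these numbers fell to 0 in at least 1 of the 12 fits, except that of the transporters (1 to 2). The bZIP factors were at 0 without WT M2 replicate 2. With the mouse as a block, which raised the calls over all genes from 416 to 1002, the calls were 3 instead of 2 among ATF4 partners and bZIP factors, 2 instead of 0 among proline, aspartate and alanine enzymes, 3 instead of 2 among ER chaperones and 4 instead of 2 among NRF2 targets, and 1 gene of the tRNA charging and export list and 1 one-carbon enzyme were called lower. Slc7a5 had 27.6, 32.98 and 29.53 TPM in WT M0, 24.81, 25.33 and 26.16 TPM in WT M2, 20.98, 22.24 and 19.38 TPM in KO M0 and 24.9, 36.95 and 33.83 TPM in KO M2. Before IL-4 every KO library was below every WT library, and after IL-4 the genotypes overlapped. The log2 change was -0.21 in WT (edgeR adjusted p = 0.137) and 0.70 in KO (edgeR adjusted p = 0.000118), and their difference was 0.91 (SE 0.15, edgeR adjusted p = 0.00874). It was called in all 12 fits without 1 library and was not called with limma on TPM.

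Cebpb, a binding partner of ATF4 on CARE, had 163.77, 180.18 and 217.27 TPM in WT M0, 113.55, 108.93 and 127.25 TPM in WT M2, 143.43, 137.42 and 120.84 TPM in KO M0 and 147.56, 144.43 and 143.27 TPM in KO M2. With IL-4 it fell in WT by 0.62 on the log2 scale (edgeR adjusted p = 0.000457) and had a change of 0.20 in KO (edgeR adjusted p = 0.149). The difference of the responses was 0.82 (SE 0.16, edgeR adjusted p = 0.0151) and was not called without WT M2 replicate 2. As for Slc7a11, these differences share the M0 libraries with the comparison of KO and WT in M0.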

How the data were processed

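Gene tables of 12 libraries were analysed, with 3 per group as the labels give them. The authors prepared poly(A) libraries with a directional kit, sequenced single-end reads of 75 nt, checked them with FastQC 0.11.2, processed them with a Grape-nf pipeline on GRCm38 (mm10), and deposited expected counts and TPM for 38887 genes. In expected counts a read that matches several genes is divided among them. Here the authors' standard deviation of the estimated count was 0 in every library for 7 of the 10 genes. The authors also deposited DESeq2 tables (1.40.2, per the labels) with their own fold changes and p-values, of which only the gene symbols were used. The genes, gene lists and tests were chosen with earlier results of these data known.

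Expected counts were rounded, filtered by group with filterByExpr and fitted in edgeR 4.0.16 (R 4.3.3) with TMM factors and the quasi-likelihood test, in 1 model with a coefficient for each group (biological coefficient of variation 8.08%). P-values were adjusted over all 12846 genes by the Benjamini-Hochberg method, and SE were computed as the log2 fold change over the root of F, with 95% intervals of 1.96 SE. The fits were tested on simulated data. Libraries stand for 3 mice per genotype. The main fit treats the 12 libraries as independent, and its p-values measure the spread of libraries within the groups, estimated over all 4 groups together. Its tests of the IL-4 responses and of their difference thus leave out the pairing by mouse. Libraries of the same number in M0 and M2 of a genotype deviated together (correlations of 0.331, 0.103 and 0.364 in WT and 0.166, 0.160 and 0.209 in KO), so that they were taken as pairs of 1 mouse, whereas libraries that share a number across genotypes did not (-0.068 to 0.040).

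Alternatives were DESeq2 1.42.0, RLE size factors, no filter or a stricter one (1 CPM in 6 libraries), limma 3.58.1 on log2(TPM + 1) and log2(TPM + 0.1), the replicate block, only the libraries compared, leaving out each library, and motifs in the 250 bases before the start only. The block was the mouse for the IL-4 responses and their difference, and the replicate number for KO against WT. The same alternatives for single genes of the lists were added after the data were seen. All 10 genes were named, and at most 3 called genes per list and comparison, those with the largest change, except for 1 gene of the lists that is not reported here. Low counts limit precision for Chac1, Trib3 and Slc7a11. Phgdh had more counts, but SE about as large as those of Slc7a11. Reads, protein and flux data were not analysed here.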

Additional observations from a re-analysis of the deposited data

Results flagged for a closer look

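The following responses to IL-4 differed between KO and WT in the test of the difference itself, given as the KO response minus the WT response on the log2 scale with its edgeR adjusted p. Slc7a5 had 0.91 (edgeR adjusted p = 0.00874), Cebpb 0.82 (edgeR adjusted p = 0.0151) and Jdp2 0.63 (edgeR adjusted p = 0.0429). Of the glutathione genes, Gclc had 0.48 (edgeR adjusted p = 0.0461). Gclm had 0.44 (edgeR adjusted p = 0.0356), and Sqstm1 had 0.46 (edgeR adjusted p = 0.0312). The ER chaperones went the other way, Hyou1 with -0.28 (edgeR adjusted p = 0.0286) and Dnajb9 with -0.49 (edgeR adjusted p = 0.0209). Slc7a11 had 0.78 with the mouse as a block (edgeR adjusted p = 0.0233) and 0.79 without it (edgeR adjusted p = 0.0788), where the call was lost.

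All 8 genes other than Slc7a11 were called between KO and WT in M0, and so was Slc7a11 (-0.51, edgeR adjusted p = 0.0464). Each M0 change had the direction opposite to the difference of the responses, and these results share the M0 libraries. Dnajb9 had 29.1 ± 1.8 TPM in WT M0 and 43.1 ± 0.934 TPM in KO M0 (mean ± SD, n = 3), and 39.1 ± 3.09 and 40.7 ± 1.4 TPM in M2. Jdp2 had 80.5 ± 12.8 and 57 ± 8.29 TPM in M0, and 17.4 ± 0.548 and 18.6 ± 1.06 TPM in M2. When 1 library was left out, the difference of Slc7a5 was called in all 12 fits, that of Cebpb was lost in 1, Dnajb9 in 5, Gclm in 7, Sqstm1 and Hyou1 in 8, and Jdp2 and Gclc in 10. With limma on TPM, the differences of Cebpb and Dnajb9 were called and those of the other 6 were not.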

How the results depend on the processing

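The 50 changes of the 10 genes gave 390 values under other settings, of which 369 kept direction and call, and 600 values without 1 library, of which 573 did. Atf4, Ddit3, Chac1, Sesn2 and Slc7a11 kept direction and call in both IL-4 comparisons under every alternative. Sign changes were confined to values that were not called. With limma on TPM (both pseudocounts) they were Shmt2 in WT with IL-4 (-0.01), Psat1 in KO with IL-4 (-0.01), Psat1 and Phgdh in M0 (0.02 and 0.06) and Sesn2 in M2 (-0.01). Without 1 library the ranges, taken at 2 decimals, crossed 0 for Trib3 (-0.04 to 0.34) and Psat1 (-0.10 to 0.04) with IL-4 in WT, for Trib3 (-0.12 to 0.37), Psat1 (-0.10 to 0.02) and Phgdh (-0.20 to 0.18) in M0, and for Psat1 (-0.03 to 0.10) and Sesn2 (-0.02 to 0.07) in M2. Ranges that reached -0.00 were those of Atf4 in M0 and of the differences of Ddit3 and Psat1. The M0 call of Slc7a11 was lost with limma (-0.32, limma adjusted p = 0.175; -0.42, 0.247) and with only the libraries compared (-0.52, edgeR adjusted p = 0.0632), so that these gave 0 genes of the 10, and DESeq2 kept it (-0.50). Its difference was called with DESeq2 and with the block (1 gene of the 10 each). Apart from Phgdh in WT, Trib3 in KO and this difference, the block changed no call of the 10 genes. The causes were not tested.

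Genes called in all numbered 752 and 700 in M0 with limma, 717 in M2 with DESeq2, 70 and 57 with limma and 165 with only the libraries compared, and for the difference 825 with DESeq2, 113 with limma (both) and 1002 with the replicate block, against 1256, 344 and 416. With limma 39.9% and 39.2% of the IL-4 calls in WT and KO were increases, against 49.8% and 50.7% with edgeR. Without 1 library, the genes called ranged from 5606 to 6678 and 6034 to 7038 for IL-4 in WT and KO, 461 to 1461 in M0, 25 to 761 in M2 (fewest without KO M2 replicate 3) and 183 to 643 for the difference, and those of the 10 from 5 to 6, 5 to 8, 0 to 1, 0 to 0 and 0 to 1. For the genes named from the lists, 173 of 1970 values lost the call and 0 changed sign. In the 250 bases before the start, CARE, ARE and STAT6 letters stood in 3, 3 and 1 of the 10 genes (4, 3 and 2 in the whole window) and in 3.45%, 10.2% and 5.85% of all promoters, as the matches of Trib3 (15 to 22) and Shmt2 (5 to 14) lie after it. At 33 to 123 counts, Chac1 has the widest counting error of the 10.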

Other observations

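Sesn2 is also a p53 target. Of 10 other p53 targets tested, 8 rose with IL-4 and 1 fell in WT and 7 rose and 2 fell in KO, with medians of 0.53 and 0.66 on the log2 scale, beside 24.9% and 26.8% of all genes tested that rose and 25.1% and 26.0% that fell. Zmat3 rose by 1.08 in WT and 1.23 in KO, Cdkn1a (p21), which the list of ATF4 targets also holds, by 0.69 and 0.79, Ccng1 by 0.85 in WT and Phlda3 by 0.82 in KO. Between KO and WT, 0 of the 10 were called in M0 or M2 with edgeR, DESeq2 or limma. At an unadjusted edgeR p under 0.05 there were 0 in M0 and 3 in M2, where at least 2280 of the 12846 genes tested passed this limit.

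In the amino acid sensing branch of mTORC1, in which Sesn2 acts, 5 of 16 genes rose and 2 fell with IL-4 in WT, and 5 rose and 3 fell in KO (median 0.13 in both), so that the share that rose was near that of all genes tested. Rragd, a Rag GTPase, rose by 1.24 and 1.22. Depdc5, a subunit of GATOR1, the complex that restrains mTORC1, fell by 0.80 and 1.04. Rragc rose by 0.43 in WT and was higher by 0.22 in KO M0 (edgeR adjusted p = 0.00522), the only call of this list between the genotypes in M0.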
